A study of Mus musculus with 2 samples.

Results

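The regions described here are the centromere-proximal ends of the mouse autosomes, taken as all 10 kb windows from position 3000000 to 5000000 of chromosomes 1 to 19 in the mm9 assembly. There are 3800 such windows, of which 3696 held a tag, among 253253 windows with a tag in the whole genome, and they are compared with the 19000 windows from 5000000 to 15000000 of the same chromosomes. They were defined by position alone, though with earlier results of these data known. Chromatin immunoprecipitation (ChIP) with an antibody to KDM2A gave 1 library, and chromatin that was not precipitated gave 1 input library. Both came from V6.5 embryonic stem cells (ESCs), a mouse line from a cross of C57BL/6 and 129/sv that the labels list under strain C57BL/6, grown on inactivated feeder fibroblasts and then kept without feeders for 2 passages before ChIP. The libraries were amplified by 18 cycles of PCR. There was 1 library in each group, so no difference has a replicate check, and every test compares these 2 libraries and covers counting error only.

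Mouse chromosomes have their centromere at the very end. Next to it lie long arrays of major and minor satellite DNA that the mm9 assembly does not hold as placed sequence, and the windows studied here are the first placed sequence beyond that gap. Pericentromeric satellite is densely methylated in normal cells. KDM2A is a histone H3 lysine 36 demethylase whose ZF-CxxC domain binds CpG dinucleotides when they are not methylated, and such CpGs are concentrated in CpG islands, the short CpG-rich elements found at many promoters.

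The label was checked against the files. No tag lay before position 3000000 on any autosome. On 18 of the 19 autosomes the first tag of each library lay within the first 20 kb, and on chromosome 19 the first tags lay at 3080108 for KDM2A and 3079752 for input. Tags are sequence reads placed at a chromosome, strand and position. The KDM2A library held 10042076 tags and the input library 9760426, of which 163516 and 150959 fell at 3 to 5 Mb.

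Gene names can be given by order only, since the annotation used here is of another assembly, GRCm38.p6 from RefSeq, and whether tags or clusters lie at any gene was not analysed here. Chromosome 12 opens with Rab10, a small GTPase of membrane traffic, Kif3c, a kinesin motor subunit, and Asxl2, a Polycomb-associated chromatin protein. Chromosome 16 opens with the olfactory receptor gene Olfr161, with Mefv, which encodes the inflammasome sensor pyrin, and with the zinc finger gene Zfp263. Chromosome 19 opens with Ighmbp2, which encodes a helicase, Mrpl21, which encodes a mitochondrial ribosomal protein, and Cpt1a, which encodes the carnitine palmitoyltransferase of fatty acid oxidation. Chromosome 14 opens with the predicted genes Gm2888, Gm2897 and Gm10340, and chromosome 11 with Sfi1, whose product binds centrin at centrosomes. To show the kind of sequence that the ZF-CxxC domain reads, 4 RefSeq promoters of such first genes follow, each from 250 bases before to 50 bases after the start, 5′ to 3′ on the gene's strand, with every CG in capitals. They were picked after their CG counts were known, as 2 rich and 2 poor in CG.
Rab10: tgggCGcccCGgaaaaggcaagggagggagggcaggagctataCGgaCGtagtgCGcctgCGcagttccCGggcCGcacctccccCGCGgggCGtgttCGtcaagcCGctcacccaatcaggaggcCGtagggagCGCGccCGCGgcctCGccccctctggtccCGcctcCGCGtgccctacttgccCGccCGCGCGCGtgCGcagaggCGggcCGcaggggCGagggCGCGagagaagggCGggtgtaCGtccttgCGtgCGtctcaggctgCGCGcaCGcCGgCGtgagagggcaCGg
Zfp263: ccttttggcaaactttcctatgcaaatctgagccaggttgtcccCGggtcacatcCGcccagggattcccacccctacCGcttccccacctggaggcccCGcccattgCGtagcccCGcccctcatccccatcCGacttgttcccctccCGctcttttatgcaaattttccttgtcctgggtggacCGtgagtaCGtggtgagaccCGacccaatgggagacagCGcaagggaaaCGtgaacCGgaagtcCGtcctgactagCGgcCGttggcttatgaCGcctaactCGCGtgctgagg
Olfr161: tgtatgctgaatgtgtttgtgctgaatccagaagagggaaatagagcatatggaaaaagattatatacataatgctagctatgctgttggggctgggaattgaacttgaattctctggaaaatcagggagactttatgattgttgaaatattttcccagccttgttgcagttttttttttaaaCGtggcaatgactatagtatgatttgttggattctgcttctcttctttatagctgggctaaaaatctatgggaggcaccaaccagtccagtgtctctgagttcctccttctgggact
Gm2888: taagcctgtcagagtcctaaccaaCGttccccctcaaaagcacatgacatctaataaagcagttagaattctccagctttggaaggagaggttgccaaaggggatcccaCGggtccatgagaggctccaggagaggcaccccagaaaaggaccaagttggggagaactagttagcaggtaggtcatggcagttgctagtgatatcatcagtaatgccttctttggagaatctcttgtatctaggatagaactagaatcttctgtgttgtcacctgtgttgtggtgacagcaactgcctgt
The Rab10 promoter on chromosome 12 holds 43 CG dinucleotides, and 2.61% of the 32851 RefSeq promoters in the table hold at least as many. The Zfp263 promoter holds 20, a number reached by 26.5% of promoters. The Olfr161 promoter holds 1 and the Gm2888 promoter 2, against a median of 7 over all promoters, of which 94.6% hold at least 1. CG reads the same on both strands, so each was counted once. Of the 57 first genes looked up, 41 had a promoter in the table.

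Taken over all 19 chromosomes, the ends held more tags per window than the sequence further in, and more so for KDM2A than for input. A window with a tag held on average 44.2 KDM2A tags and 40.8 input tags at 3 to 5 Mb, and 32.3 and 35.0 tags at 5 to 15 Mb. The density at the ends was thus 1.37 times that further in for KDM2A (95% counting interval 1.36 to 1.38) and 1.17 times for input (1.16 to 1.17). KDM2A tags made up 52.0% of the KDM2A and input tags at the ends (95% Wilson interval 51.8% to 52.2%), 47.9% at 5 to 15 Mb (47.9% to 48.0%) and 50.7% in all. The medians differed less. The median window with a tag held 24 KDM2A and 34 input tags at the ends and 22 and 33 further in. The averages over all ends rested on a few chromosomes, as the values by chromosome show.

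At 12 of the 19 ends the KDM2A share was higher than at 5 to 15 Mb of the same chromosome, and at 7 it was lower. By 2-sided Fisher's exact tests on the tag counts, adjusted by Benjamini-Hochberg over the 19 chromosomes, 10 of the higher and 5 of the lower shares had an adjusted p under 0.05. Tags that share a peak or a repeated position are not independent, which makes these p-values too small, and equal lengths of 1 chromosome also varied among themselves. The ends were therefore set beside the 5 stretches of 2 Mb from 5 to 15 Mb. The share at the end lay above all 5 stretches on chromosomes 2, 5, 7, 12 and 16, within their range on 14 chromosomes and below them on 0. On chromosome 2 the margin was small, at 49.3% against 48.9% in its highest stretch. Any 1 stretch is the highest or lowest on some chromosomes without being unusual, so these counts are a description. The same holds where density and clusters are set beside these stretches below.

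**Figure D1:**
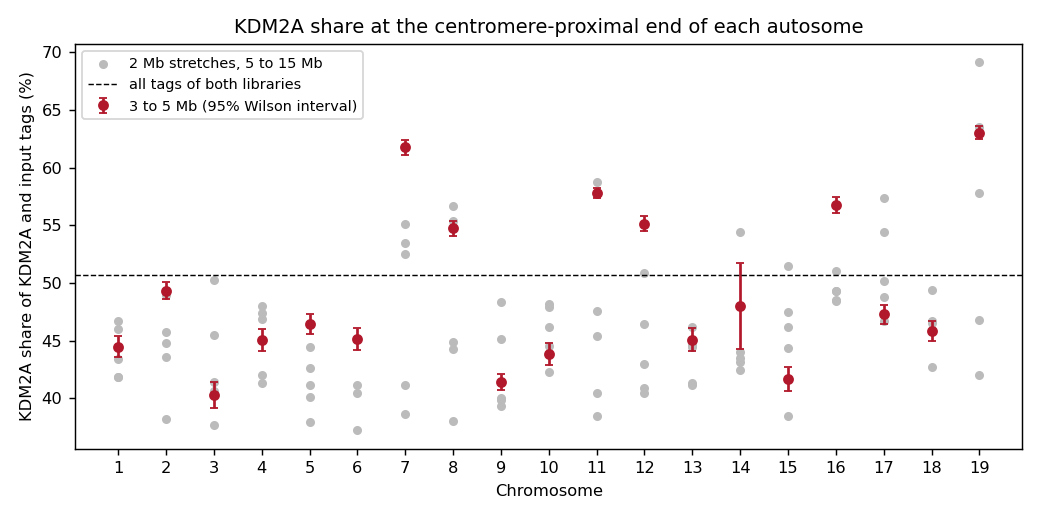
KDM2A tags as a percentage of KDM2A and input tags at 3 to 5 Mb of each autosome (red points, bars are 95% Wilson intervals) and in the 5 stretches of 2 Mb from 5 to 15 Mb of the same chromosome (grey points), with the share over all tags as a dashed line. The ends of chromosomes 7 and 19 have the highest shares, 61.8% and 63.0%, and 12 of the 19 ends lie at or under the 48.0% of chromosome 14.

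The largest difference was at chromosome 7. Its end held 13622 KDM2A and 8426 input tags, a share of 61.8% (61.1% to 62.4%), against 50.6% at 5 to 15 Mb, where the 5 stretches ranged from 38.7% to 55.2% (adjusted p = 6.11e-150, Fisher's exact test). The end of chromosome 12 held 11481 KDM2A and 9336 input tags, a share of 55.2%, against 45.0% further in, with stretches from 40.4% to 50.9% (adjusted p = 1.64e-137, Fisher's exact test). Chromosome 16 held 10221 and 7788 tags at its end, a share of 56.8%, against 49.4% and a narrow range of stretches from 48.4% to 51.1% (adjusted p = 1.45e-71, Fisher's exact test). Each of these 3 ends lay outside the range of its own chromosome.

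Other ends with a high share lay within the range of their chromosome. Chromosome 19 had the highest share of all, 63.0% from 18022 KDM2A and 10567 input tags, but its stretches from 5 to 15 Mb ran from 42.0% to 69.1%. Chromosome 8 had a share of 54.7%, within 38.0% to 56.7%, and chromosome 11 a share of 57.8%, within 38.5% to 58.7%. The lowest share was at chromosome 3, where 2940 KDM2A and 4352 input tags gave 40.3% (39.2% to 41.4%) against 44.7% further in (adjusted p = 2.81e-12, Fisher's exact test), and this too lay within the stretches, from 37.7% to 50.3%. Chromosome 15 was at 41.7% against 46.8%, and chromosome 17 at 47.3% against 51.6%, both within their stretches.

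Tag density varied more than the share. For KDM2A, 6 ends lay above and 2 below all 5 stretches of their chromosome, and for input 5 lay above and 3 below. Chromosome 9 was above in both libraries only with its first 100 kb, which held 4689 KDM2A and 7335 input tags. The rest of the end of chromosome 9 held 20.03 and 24.63 tags per window, within the range of its stretches. These values were below its 23.32 and 30.09 tags per window at 5 to 15 Mb. The highest density was at chromosome 11, with 153.2 KDM2A and 111.7 input tags per window, 3.79 and 2.71 times the density at 5 to 15 Mb. Its first 100 kb alone held 11205 KDM2A and 9892 input tags. The rest of its end held 102.3 and 65.5 tags per window, still above its highest stretches, at 89.2 and 62.7. Chromosome 7 followed in the ratio for KDM2A, at 3.12 times against 1.98 times for input, with 69.9 KDM2A and 43.2 input tags per window. Its comparison was partly sparse. From 7 to 9 and from 9 to 11 Mb only 88 and 105 windows held a tag, and its 5 stretches ranged from 5.35 to 36.8 KDM2A tags per window. At the other extreme was chromosome 14. Its 200 windows held 326 KDM2A and 353 input tags in all, 80 of them held no tag, and only 22 held the 10 tags of both libraries together that were needed for a test. The density in its windows with a tag was 0.107 times that further in for KDM2A and 0.0941 times for input, so both libraries were low there in nearly the same ratio, and its share of 48.0% had a wide interval of 44.3% to 51.8% (adjusted p = 0.122, Fisher's exact test). On the median chromosome the ratio of densities was 1.05 for KDM2A and 0.952 for input.

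**Figure D2:**
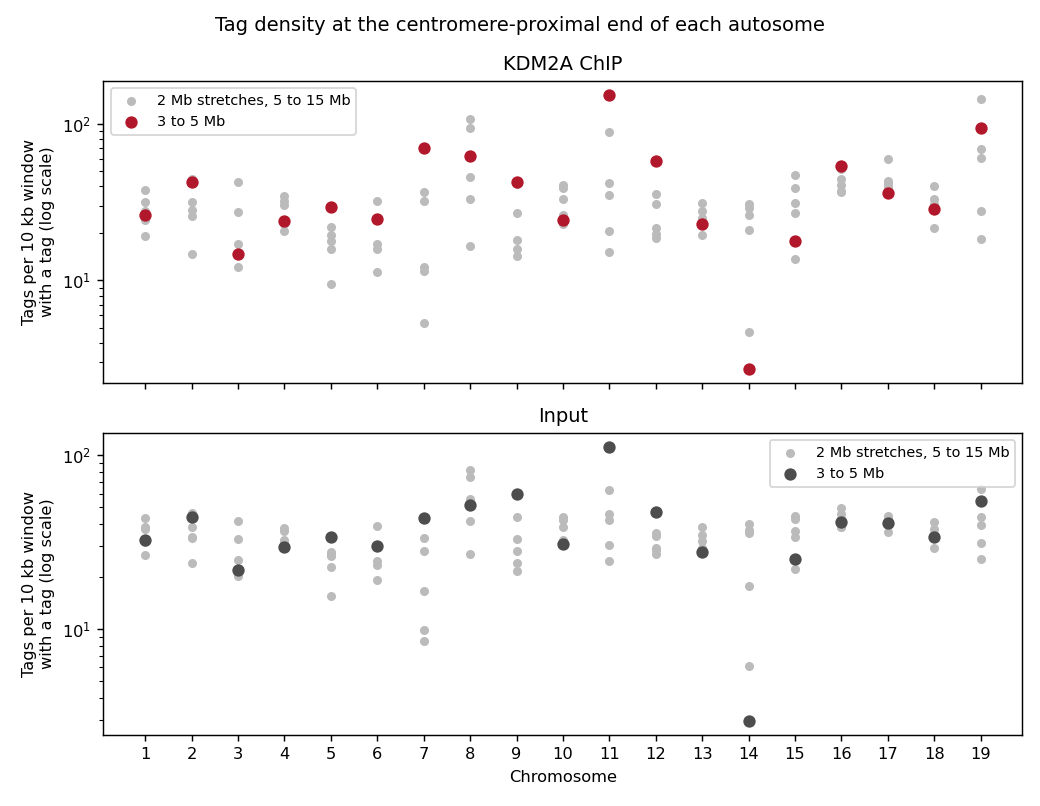
KDM2A tags (upper panel) and input tags (lower panel) per 10 kb window with a tag, on a log scale, at 3 to 5 Mb of each autosome (coloured points) and in the 5 stretches of 2 Mb from 5 to 15 Mb (grey points). Chromosome 11 is the highest end in both panels, at 153.2 and 111.7 tags, and chromosome 14 the lowest, at 2.72 and 2.94.

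Peaks of KDM2A were unevenly spread over the ends. A cluster is a run of 250 bp bins in which KDM2A exceeded both the genome mean and the local input (adjusted p under 0.01, one-sided Poisson test), and its height is the number of KDM2A tags in its highest bin. The ends held 770 clusters, or 20.8 per Mb of windows with a tag, against 12.01 per Mb at 5 to 15 Mb and 17.3 per Mb in the genome. Of the bins at the ends 1.35% were called, against 0.704% further in and 1.05% genome-wide. The same test with KDM2A and input exchanged called 226 clusters at the ends, 6.11 per Mb, and 5.29 per Mb further in. This number is not a direct noise level for the KDM2A clusters, since the libraries differed in repeated tags. At the ends 22.8% of input tags and 7.07% of KDM2A tags repeated a position and strand. With each position and strand counted once, the ends held 696 clusters, 5 to 15 Mb held 1933 and the genome 39157. The exchanged test then called 25 at the ends, 13 at 5 to 15 Mb, which is a longer stretch, and 220 in the genome.

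Of the 770 clusters, 550 (71.4%) lay on 6 chromosomes, with 146 on chromosome 19, 120 on chromosome 11, 109 on chromosome 7, 62 on chromosome 8, 59 on chromosome 16 and 54 on chromosome 12. The other 13 ends held 220 clusters, and the median end held 22. Chromosomes 3 and 14 held 5 and 3. All 3 of those on chromosome 14 had a height of 7 or 8 tags, and the highest on chromosome 3 reached 12. Neither end had a cluster of 15 tags or more in its 2 Mb. The longest stretch without one elsewhere was on chromosome 17, 1640 kb between a cluster that ended at 3353500 and one that began at 4993751, followed by chromosome 6 with 1399 kb. At 7 ends the number of clusters exceeded that of every 2 Mb stretch further in, among them chromosomes 7, 9, 11, 12 and 16. On chromosomes 8 and 19 it did not, since a stretch further in held 87 and 209 clusters. Chromosome 9 held 36 clusters against at most 27 in a stretch. Of its 36, 12 lay in the first 40 kb and had more input than KDM2A tags in their highest bin.

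The pooled density ratios were above 1 with the 6 cluster-rich ends and below 1 without them. Because these ends were chosen by their number of KDM2A clusters, their higher share is a description, and so is the change of the ratios without them. Their share was 58.4%, against 51.8% at 5 to 15 Mb of the same 6 chromosomes. That of the other 13 ends was 44.9%, against 45.6% at 5 to 15 Mb of the same 13 chromosomes. At these 13 ends the density was 0.965 times that further in for KDM2A and 0.989 times for input, and at the 6 ends 1.93 and 1.48 times. The ratios of the 6 ends include the first 100 kb of chromosome 11, which held 11205 KDM2A and 9892 input tags. The share ran from 54.7% to 63.0% at the 6 ends and from 40.3% to 49.3% at the 13. Outside clusters it was 51.8% at the 6 ends and 42.3% at the 13, which is a description too. Over all ends, the share outside clusters was 47.0% (46.8% to 47.2%), against 44.8% at 5 to 15 Mb (44.7% to 44.9%) and 46.8% in the genome.

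Single windows were then tested one by one. Each of the 3508 windows at the ends that held at least 10 tags was tested for its share of KDM2A tags by a 2-sided exact binomial test against the share over all tags, 50.7%, adjusted over all tested windows of the genome with a limit of 0.01. KDM2A was higher in 321 windows (9.15%), against 7.40% of windows genome-wide, and input was higher in 152 (4.33%), against 4.97% genome-wide. At 5 to 15 Mb the shares were 4.82% and 5.67%. With the expected share taken from tags outside clusters instead, 408 windows at the ends (11.6%) were called KDM2A-higher, against 9.68% genome-wide, and 64 (1.82%) input-higher, against 1.56%. The share of input-higher windows at the ends was thus below the genome-wide share with the first scaling and above it with the second. The next contrast is a description, since the 6 cluster-rich ends were chosen by their number of KDM2A clusters. At these 6 ends 22.4% of tested windows were KDM2A-higher, and at the other 13 ends 2.93%, against 7.40% genome-wide. Chromosome 19 had 70 such windows of 190 tested, chromosome 11 had 54 of 200, chromosome 7 had 45 of 182, and chromosome 3 had 0 of 198.

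Of the 10 windows with the lowest p for KDM2A-higher, 1 lay in the first 100 kb and the others at 4110001 or beyond. Leaving aside chromosome 11 from 3090001 to 3100000, which is described with the windows of high input, the lowest p was that of chromosome 7 from 4980001 to 4990000, with 540 KDM2A tags and 57 input tags, 9.21 times the scaled input (adjusted p = 9.55e-93, exact binomial test). It was followed by chromosome 19 from 4610001 to 4620000, with 457 and 49 tags, a ratio of 9.07, and by chromosome 7 from 4870001 to 4880000, with 445 and 68 tags, a ratio of 6.36. Chromosome 17 from 4990001 to 5000000 held 317 KDM2A and 36 input tags, a ratio of 8.56, at an end with 23 clusters. In all 4 windows the input was between 0.934 and 1.76 times its mean over the genome, so these windows were high in KDM2A and ordinary in input.

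Clusters whose highest bin held input of 10-fold its mean or more are described with the windows of high input. Among the rest the tallest was on chromosome 17 from 3352751 to 3353500, where 168 KDM2A and 10 input tags lay and the highest bin held 70 KDM2A tags (adjusted p = 1.10e-87 by the exact Poisson test). KDM2A made up 94.4% of its tags (90.0% to 96.9%). Chromosome 11 from 4846751 to 4848500 followed, with 213 and 16 tags and a height of 56, then chromosome 8 from 3495501 to 3496750, with 173 and 16 tags and a height of 54. The cluster on chromosome 7 from 4980501 to 4984500 held 433 KDM2A and 15 input tags over 4 kb, 28.1 times the scaled input, the highest ratio of the 10 clusters ranked first by height. Ends poor in clusters also had tall ones. On chromosome 10, with 9 clusters at its end, the one from 3134001 to 3135750 held 188 and 13 tags and reached 47, and on chromosome 5, with 16, the one from 3802501 to 3803750 held 116 and 5 tags and reached 49. The widest cluster, on chromosome 11 from 4957251 to 4965750, spanned 8.5 kb, and the next, on chromosome 19 from 4612001 to 4620000, spanned 8 kb with 419 KDM2A and 36 input tags. Of the 770 clusters, 364 were a single bin and 55 were 2 kb wide or more.

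**Figure D3:**
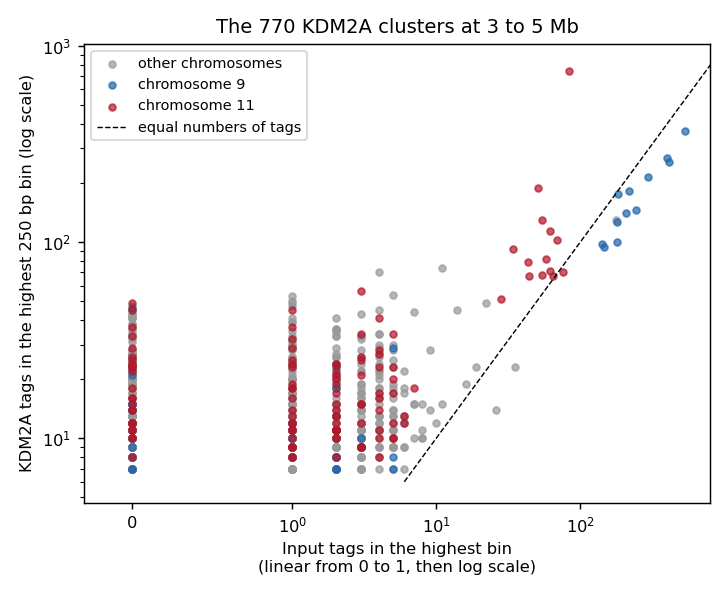
Height of each of the 770 KDM2A clusters at 3 to 5 Mb, in KDM2A tags of its highest 250 bp bin (log scale), against the input tags of the same bin (linear from 0 to 1, then log scale), with a dashed line where both are equal. Most clusters lie above the line, whereas the tall clusters of chromosome 9, with 94 to 366 KDM2A tags, lie below it with 142 to 534 input tags.

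Near the start of the placed sequence the 2 libraries were sparse on many chromosomes, but not on all, and extremely dense on 2 of them. In the first 100 kb the median chromosome held 11.9 KDM2A and 15.5 input tags per window, and in the next 100 kb it held 26.4 and 22.4. In the last 100 kb, up to 5000000, it held 37.0 and 42.1. The first 100 kb was below the rest of the end on 11 of the 19 chromosomes in both libraries. On the others it was above the rest. Chromosome 3 held 31.9 KDM2A and 36.5 input tags per window there, against 13.8 and 21.0, and chromosome 17 held 86.5 and 64.7, against 33.6 and 39.2. Of the windows in the first 100 kb 30.5% held under 10 tags, against 4.74% of windows in the last 100 kb. The first 100 kb was nearly empty on chromosome 16, with 8 KDM2A and 10 input tags, and on chromosome 19, with 13 and 11. The totals ran the other way. The first 100 kb held 19261 KDM2A and 20785 input tags over the 19 chromosomes, more than any other 100 kb step, because chromosomes 9 and 11 gave 82.5% of its KDM2A and 82.9% of its input tags. The KDM2A share was 48.1% in the first step and highest in the last, at 57.9%, but it did not rise evenly, and the steps from 700 and from 1300 kb, at 47.97% and 47.6%, were lower than the first. Without chromosomes 9 and 11 the first and last shares were 48.6% and 56.2%, and both of the steps between them just named were at 47.2%.

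**Figure D4:**
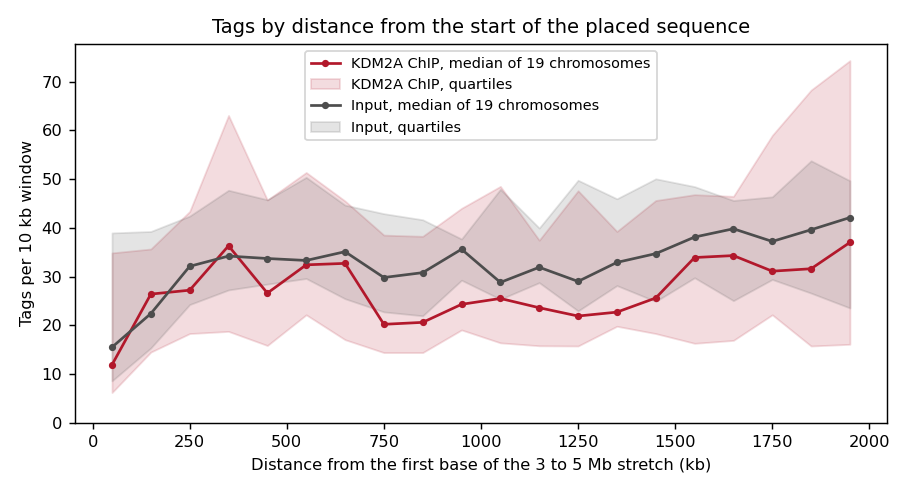
KDM2A (red) and input (grey) tags per 10 kb window in steps of 100 kb from the start of the 3 to 5 Mb stretch, as the median over the 19 chromosomes, with shading from the lower to the upper quartile. Both medians are lowest in the first step, at 11.9 and 15.5 tags, and end at 37.0 and 42.1.

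An input library shows how many tags a place gathers without the antibody. Its mean was 38.5 tags per window. At the ends, input reached 10-fold this mean or more in 11 windows, against 27 windows (0.0107%) in the genome and 0 at 5 to 15 Mb. The remaining 16 lay elsewhere, 7 of them on chromosome Y. The 11 windows are 4 on chromosome 9 and 7 on chromosome 11, and together they held 9.33% of the KDM2A and 10.97% of the input tags at all ends.

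On chromosome 9 these were the first 4 windows, from 3000001 to 3040000. They held 1368, 643, 1437 and 1116 KDM2A tags and 2186, 1028, 2129 and 1816 input tags, and the window after them 19 and 14. The input there was 26.7 to 56.7 times its mean. KDM2A made up 38.9% of the tags (38.1% to 39.8%), and input was higher in each of the 4 windows, with adjusted p from 2.00e-45 to 1.73e-21 by the exact binomial test. The edge was sharp, and the 6 windows from 3040001 to 3100000 held 15 to 36 KDM2A and 14 to 43 input tags.

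These 4 windows also held many tags at the same positions. Their KDM2A tags had 2.12 tags per position and strand and their input tags 2.63, against 1.05 and 1.26 genome-wide. The counts in the files end at 7 in the KDM2A library and at 9 in the input library, and of all positions at those highest counts, 40 of 168 and 59 of 149 lay in these 40 kb. Whether a limit was set before deposit is not given in the sources used here, and a limit would make the share there uncertain beyond its interval. When every position was counted a single time, the share was 44.2%, against 55.2% for all tags counted so.

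The windows of chromosome 11 had a narrower range of input and another pattern of KDM2A. The 7 windows from 3030001 to 3100000 held 1172 to 1534 input tags, 30.4 to 39.8 times the mean, and 879 to 2732 KDM2A tags. From 3030001 to 3060000 the KDM2A share was 54.2%, 55.4% and 52.9%, and the first 2 of these windows passed the limit. From 3060001 to 3090000 it was 43.3%, 43.4% and 42.7%, and input was higher in all 3 windows (adjusted p from 4.28e-12 to 1.48e-09, exact binomial test). From 3090001 to 3100000 it was 67.6% (66.2% to 69.1%), with 2732 KDM2A and 1308 input tags (adjusted p = 1.46e-100, exact binomial test). Repeated positions were fewer than on chromosome 9. From 20 to 100 kb into the end there were 1.20 KDM2A and 1.32 input tags per position, 2 positions at the highest count in the KDM2A library and 0 in the input library. Repeats were unevenly spread. From 3090001 to 3100000 the 2732 KDM2A tags lay at 1828 positions and strands, whereas in the window before it 879 tags lay at 814. With each position and strand counted once, the share from 3090001 to 3100000 was 63.8%, against 55.2% for all tags counted so.

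**Figure D5:**
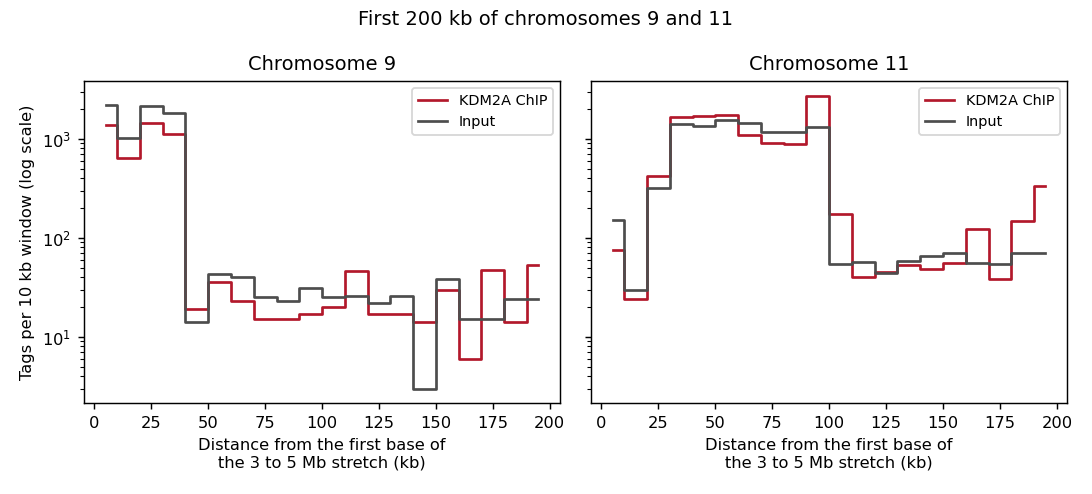
KDM2A (red) and input (grey) tags in each 10 kb window of the first 200 kb of chromosomes 9 and 11, on a log scale, by distance from the start of the 3 to 5 Mb stretch. On chromosome 9 both libraries drop after 40 kb, from 1116 and 1816 tags to 19 and 14, and on chromosome 11 they are high from 30 to 100 kb, with KDM2A highest in the last of those windows at 2732 tags.

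The tallest clusters of the ends lay mostly in these windows. There were 28 clusters of 60 tags or more at the ends, of 152 in the genome, and in 27 of them the highest bin held input of 10-fold its mean or more. Of the 28, 12 lay on chromosome 9 and 13 on chromosome 11, with 1 on chromosome 12 and 2 on chromosome 17. In 14 of them the highest bin held more input than KDM2A tags, which the call permits because it compares a bin with the input averaged over 5 kb. All 12 on chromosome 9 were of this kind, for example the one from 3000001 to 3000500 with 531 KDM2A and 792 input tags. So was the one on chromosome 12 from 3109751 to 3110250, with 177 and 247. On chromosome 11 the cluster from 3049501 to 3051500 held 857 KDM2A and 369 input tags, and the one from 3092251 to 3094250 held 2017 and 373 and was the tallest, at 748 tags. The cluster with high input on chromosome 17, from 3084001 to 3084500, held 91 KDM2A and 17 input tags. Without the clusters of high input, 734 of the 770 were left, 288 of them with a height of 15 tags or more.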

How the data were processed

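The submitters' processing notes name Bowtie and the mm9 assembly. The authors deposited, for each library, a list of genome positions by strand with the raw count of tags placed there, which is not normalized. Whether positions start from 0 or 1, and which end of a minus-strand tag is listed, are not given in the sources used here, so window edges are uncertain by 1 base, and by up to a read length for minus-strand tags.

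Counts were summed in 10 kb windows as deposited. Windows with at least 10 tags were tested by a 2-sided exact binomial test with Benjamini-Hochberg adjustment over 248115 windows of the genome. For clusters, each tag was moved 50 bp toward its 3′ side, and 250 bp bins were compared, by a one-sided exact Poisson test, with whichever was larger, the KDM2A mean over all bins or the local input over 5 kb, scaled by total tags. Bins with an adjusted p under 0.01 within 500 bp were merged. Fisher's exact tests compared the ends with 5 to 15 Mb. The Wilson intervals and the counting intervals of the density ratios are 95%, cover counting error only and treat tags as independent. PCR copies are not independent molecules, so these intervals are too narrow. The window and cluster tests were checked on simulated independent counts, a check that does not cover repeated tags at a position. Python 3.11.15, numpy 2.4.6, pandas 2.3.3, scipy 1.17.1 and matplotlib 3.10.9 were used.

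The regions, tests and alternatives were chosen with earlier results of these data known. Windows and clusters were named by rank, as the 10 with the most input, the 10 and 5 lowest p for KDM2A-higher and input-higher, the 10 tallest clusters without high input, and all clusters of 60 tags or more. The group of 6 ends, the settings without them or without chromosomes 9 and 11, and the printed promoters were chosen after the values were seen. No genome sequence of mm9 was used, and RefSeq GRCm38.p6 served for gene order and promoter sequence.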

Additional observations from a re-analysis of the deposited data

How the results depend on the processing

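No paired analysis was possible because there was a single KDM2A and a single input library, and for this reason none was left out. For each change below, the cause was not tested.

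With each position and strand counted once, the KDM2A share at the ends was 56.6%, on a scale where all tags give 55.2%, the density ratio 1.12 for input and 1.34 for KDM2A, and 90 windows were input-higher. Without windows at or above 10 times the input mean, the share was 52.5%, the density ratios 1.04 and 1.25, and tags beyond the first at a position fell from 7.07% to 4.97% in the KDM2A library and from 22.8% to 20.6% in the input library. Without the first 100 kb the share was 52.6% and the ratios 1.06 and 1.27. Compared with 5 to 10 Mb the ratios were 1.18 and 1.33, and compared with 10 to 15 Mb 1.15 and 1.41. Of the alternatives added after seeing the data, leaving out chromosomes 9 and 11 gave a share of 51.6% and ratios of 1.01 and 1.17. Leaving out the 6 ends richest in clusters gave a share of 44.9% and ratios of 0.989 and 0.965, the only setting in which the ratios fell under 1. These ends were chosen by KDM2A clusters in the same tags, so the choice itself favours a lower KDM2A ratio without them.

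Input-higher windows, 152 at first (4.33% of those tested, against 4.97% genome-wide), numbered 249 with 20 kb windows (13.9% against 15.6%), and the 90 with positions counted once were 2.58% against 2.76%. With scaling by tags outside clusters they numbered 64 (1.82% against 1.56%), and at an adjusted p limit of 0.0001 they numbered 24 (0.684% against 0.328%), and with 5 kb windows 113 (1.74% against 1.38%), so that under these last settings the ends lay above the genome-wide share and not below it. KDM2A-higher windows numbered 215 at the limit of 0.0001 (6.13% against 4.97% genome-wide) and 408 with scaling by tags outside clusters (11.6% against 9.68%). With 20 kb windows they numbered 225 (12.5% against 10.6%), and with 5 kb windows 402 (6.19% against 5.01%). At every setting their share at the ends was above that genome-wide. Windows of high input numbered 6 of 20 kb and 23 of 5 kb. Clusters numbered 477 at the same stricter limit, against 1254 at 5 to 15 Mb and 25149 in the genome, with 41 at the ends in the exchanged test. When local input was left out of the call they numbered 1164, against 3541 and 71725, with 889 at the ends in the exchanged test. The number of chromosomes with a lower share at the end stayed between 6 and 8 of those used. Depth limits the single windows, which hold 24 KDM2A and 34 input tags at the median.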

Other observations

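The X chromosome is not among the autosomes described above. Its windows from 3 to 5 Mb held 224 KDM2A and 381 input tags, with a tag in 124 of 200 windows and 0 clusters, and KDM2A made up 37.0% of the tags (95% Wilson interval 33.3% to 40.9%). From 5 to 15 Mb it held 16969 and 17660 tags, a share of 49.0%, and 91 clusters. Windows with a tag held 1.81 KDM2A and 3.07 input tags at the end and 17.1 and 17.8 further in, so that both libraries were sparse at the end of X, as at the end of chromosome 14.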
